A study of Homo sapiens with 9 samples.

Results

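The vehicle-treated group of Huh7 cells was described across all measured genes. It comprised the 3 libraries that the labels call vehicle, out of 9 libraries in the series, and it was selected by label alone, with no expression value used. Huh7 is an established cell line from a human hepatocellular carcinoma, grown here as an adherent culture in DMEM with fetal bovine serum. The other 6 libraries came from Huh7 cells given for 48 h either FIDAS-5, an inhibitor of the methionine adenosyltransferase MAT2A, at 5 µM or JQ1, an inhibitor of BET bromodomain proteins, at 0.5 µM. None of their values was used below. The labels name neither the vehicle nor how long it was applied, and they do not say whether the 3 libraries came from separate cultures, so the spread between them may be technical. A cell line carries the genotype of 1 tumour, so the levels below describe Huh7 and no other hepatoma.

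Total RNA was sequenced and each gene's level was deposited as TPM, a transcript abundance that divides reads by transcript length and by the library's total, so that levels of different genes can be set side by side. Values are given in the order of replicates 1, 2 and 3, or as mean ± SD over these libraries (n = 3). A gene was called expressed at 1 TPM or more in each of the 3 libraries and abundant at 100 TPM or more in each. The lowest class held genes below 0.1 TPM in each library. All other genes were called low. Sequencing depth was not given in the sources used here, so no counting error can be attached to a low level, and a gene at 0 is described only as listed at 0. With 1 group there is no contrast to test. The smallest p that an exact sign-flip test over 3 libraries could give is 0.25, and 2 genes are therefore called separated only where their ranges over the libraries did not overlap.

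Hepatocytes make most plasma proteins and lipoproteins and run the urea cycle, gluconeogenesis, bile acid synthesis and drug oxidation. A small circuit of transcription factors, with HNF4A, FOXA and C/EBP proteins at its core, keeps these programmes on. Fetal liver makes alpha-fetoprotein (AFP) along with albumin (ALB), and the adult liver makes albumin with little alpha-fetoprotein. Many metabolic steps have a liver isoenzyme and a widely used counterpart encoded by another gene, such as MAT1A and MAT2A for S-adenosylmethionine synthesis, and liver tumours are known for using the counterparts.

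The promoters of genes on which the description turns are shown first. Each is the 250 bases before the annotated start in RefSeq (GRCh38.p14), on the gene's own strand, 5′ to 3′. The albumin family genes ALB, AFP and AFM (afamin) lie in a row on chromosome 4, all on the plus strand, and are shown because they share an origin but not a level in these cells. Capitals mark GTTAAT, a hexamer known from promoters of liver genes, and TATAAA, the promoter box bound by TBP. Both strands were searched, and the 2 motifs do not overlap in these windows.
ALB, chr4:73404037-73404286: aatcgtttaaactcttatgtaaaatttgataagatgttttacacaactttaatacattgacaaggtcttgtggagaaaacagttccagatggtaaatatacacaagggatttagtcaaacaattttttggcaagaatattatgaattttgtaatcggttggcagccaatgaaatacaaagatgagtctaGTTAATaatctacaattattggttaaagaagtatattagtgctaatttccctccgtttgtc
AFP, chr4:73435971-73436220: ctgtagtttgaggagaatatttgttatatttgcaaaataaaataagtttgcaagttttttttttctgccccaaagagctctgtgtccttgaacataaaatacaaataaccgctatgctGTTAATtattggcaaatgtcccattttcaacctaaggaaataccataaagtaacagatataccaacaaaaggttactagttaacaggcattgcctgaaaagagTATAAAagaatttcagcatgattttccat
AFM, chr4:73481495-73481744: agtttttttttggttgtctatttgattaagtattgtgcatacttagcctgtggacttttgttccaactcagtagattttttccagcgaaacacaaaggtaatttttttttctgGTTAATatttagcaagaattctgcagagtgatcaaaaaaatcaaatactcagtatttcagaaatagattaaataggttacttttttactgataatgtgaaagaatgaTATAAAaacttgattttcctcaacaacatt
GTTAAT lay 61 bases upstream of the ALB start, 132 upstream of AFP and 137 upstream of AFM, counted from the motif's first base. It occurred in 742 of 15277 promoters of protein-coding genes with an entry, or 4.86%. TATAAA lay 29 bases upstream of AFP and 30 bases upstream of AFM and occurred in 9.10% of those promoters. Both motifs were present before AFM as before AFP, and AFM was at 0.208, 0.264 and 0.214 TPM and AFP at 1382, 1899 and 1647 TPM.

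MAT2A, on the plus strand, and MAT1A, on the minus strand, are shown as a widely used enzyme and its liver counterpart. LDHA, on the plus strand, and LDHB, on the minus strand, are shown as the main subunit genes of lactate dehydrogenase, of which LDHB was listed at 0. Capitals here mark every CG dinucleotide, since promoters rich in CG are typical of widely used genes.
MAT2A, chr2:85538918-85539167: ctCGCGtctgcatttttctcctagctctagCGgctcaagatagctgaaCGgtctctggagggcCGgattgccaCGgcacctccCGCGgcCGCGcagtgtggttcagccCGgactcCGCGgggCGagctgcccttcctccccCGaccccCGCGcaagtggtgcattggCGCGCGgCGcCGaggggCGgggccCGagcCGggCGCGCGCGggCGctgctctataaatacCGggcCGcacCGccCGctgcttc
MAT1A, chr10:80289659-80289908: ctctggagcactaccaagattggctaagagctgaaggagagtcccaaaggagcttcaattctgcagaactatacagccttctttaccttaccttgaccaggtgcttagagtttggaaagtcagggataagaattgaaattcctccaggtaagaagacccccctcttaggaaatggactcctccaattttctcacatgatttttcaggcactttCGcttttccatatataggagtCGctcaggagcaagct
LDHA, chr11:18394313-18394562: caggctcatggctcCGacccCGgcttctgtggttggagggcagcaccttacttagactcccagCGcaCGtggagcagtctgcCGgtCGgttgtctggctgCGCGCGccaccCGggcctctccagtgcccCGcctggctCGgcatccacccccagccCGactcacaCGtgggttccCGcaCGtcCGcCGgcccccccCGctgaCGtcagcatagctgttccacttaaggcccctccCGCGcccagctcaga
LDHB, chr12:21657843-21658092: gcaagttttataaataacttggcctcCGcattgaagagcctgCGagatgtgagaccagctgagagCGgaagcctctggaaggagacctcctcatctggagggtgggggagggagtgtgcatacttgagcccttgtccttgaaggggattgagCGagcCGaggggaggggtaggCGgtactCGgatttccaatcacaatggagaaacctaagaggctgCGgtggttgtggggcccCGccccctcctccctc
MAT2A held 34 CG dinucleotides and MAT1A held 2. LDHA held 22 and LDHB held 9. The median over the 15277 promoters was 18, with the 10th percentile at 2 and the 90th at 33. MAT2A was at 78.4, 108 and 100.01 TPM and MAT1A at 2.19, 2.69 and 2.099 TPM, whereas LDHA was at 495, 710.4 and 591 TPM and LDHB was listed at 0 in each library.

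The mature microRNA hsa-miR-122-5p, a liver microRNA that hepatitis C virus uses for its replication, has the RefSeq sequence below (chr18:58451088-58451109, plus strand), with its seed, bases 2 to 8, in capitals.
hsa-miR-122-5p: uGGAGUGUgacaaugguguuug
Its gene symbol, MIR122, was listed at 109, 208 and 209.7 TPM. That value is for the precursor gene in a total RNA library and is no measure of the mature microRNA.

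The table held 27800 gene symbols, of which 19066 matched a protein-coding gene in RefSeq. Protein-coding genes held 30.3%, 32.1% and 30.8% of all TPM. Structural RNAs such as RN7SK and RMRP held 41.9% to 57.7%, and the symbols MIR4461 and MIR6723 varied widely, at 131445, 25231 and 75408 TPM and 131671, 62172 and 108713 TPM. A level in TPM is therefore lower than it would be if scaled to the protein-coding total alone. Between 10606 and 10876 protein-coding genes reached 1 TPM in a library.

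Of the 19066 protein-coding genes, 10381 (54.4%) were expressed and 412 (2.16%) were abundant. Another 4454 (23.4%) were below 0.1 TPM in each library, of which 2652 were listed at 0 in all 3. These percentages are the background against which each gene list below is read, together with the median level over all protein-coding genes, 1.96 TPM. Of all 27800 symbols, 11809 were expressed.

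The label was checked against 4 liver markers, and all 4 were expressed. AFP (chr4:73436221-73456174) was at 1382, 1899 and 1647 TPM and ranked the 13th among protein-coding genes. ALB (chr4:73404287-73421482), the main plasma protein, was at 953, 1591 and 1184 TPM and ranked the 21st. TTR (chr18:31591877-31598821), transthyretin, a carrier of thyroxine and retinol-binding protein, was at 307, 300.4 and 287 TPM. APOB (chr2:21001429-21044073), the core protein of very low density lipoprotein, was at 222, 106 and 189.7 TPM. AFP and ALB were highest in replicate 2, APOB was lowest there, and TTR was nearly level across the 3 libraries.

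Of 54 listed markers of other liver cells, 8 were expressed (14.8%), 18 were low and 28 were below 0.1 TPM in each library (51.9%). Of 11 endothelial markers, 10 were below 0.1 TPM in each library, VWF and CDH5 among them listed at 0, and PECAM1, an adhesion molecule of endothelium and platelets, was expressed at 8.69 ± 1.88 TPM. None of 10 stellate cell and fibroblast markers was expressed, with 6 low and 4 below 0.1 TPM. COL1A2, a chain of type I collagen and among the highest of them, was at 1.12, 0.543 and 0.499 TPM. Of 15 leukocyte markers 4 were expressed, namely LYZ (lysozyme) at 113 ± 11.7 TPM, LCP1 (an actin bundler) at 7.58 ± 2.09 TPM, CD68 (a lysosomal protein) at 3.71 ± 0.292 TPM and CD14 (a lipopolysaccharide co-receptor) at 2.401 ± 0.389 TPM. The pan-leukocyte gene PTPRC was at 0.7402, 0.35996 and 0.918 TPM, and the macrophage genes CD163 and MARCO were listed at 0. Of 10 markers of cholangiocytes, the bile duct cells, 3 were expressed, among them SOX9 at 22.8 ± 3.24 TPM and EPCAM at 5.76 ± 0.514 TPM, while 4 were low and 3 below 0.1 TPM. No erythroid marker of 8 was expressed, and HBA1, HBA2, HBB, HBG1 and HBG2 were listed at 0.

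The 10 highest protein-coding genes held 8.41 ± 0.189% of protein-coding TPM, the 30 highest 16.8%, the 100 highest 30.4% and the 1000 highest 66.0%. Ferritin light chain, FTL, a subunit of the iron store, led at 4562, 4137 and 4345 TPM. RPL41, a ribosomal protein, followed at 3426, 5049 and 3674 TPM, and their ranges overlapped. The 30 highest held 12 ribosomal protein genes and 5 histone genes, along with the cytoskeletal genes ACTB and TUBA1B, the glycolytic enzyme GAPDH and the elongation factor EEF1A1. The secreted liver proteins among them numbered 4: RBP4 at 1928, 1579 and 1665 TPM, AFP, ALB and SERPINA1 at 1123, 899.7 and 928 TPM. GSTP1, the pi-class glutathione transferase, was at 1046, 1364 and 1177 TPM. Of the 30 genes, 18 were highest in replicate 2, 8 in replicate 1 and 4 in replicate 3.

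**Figure D1:**
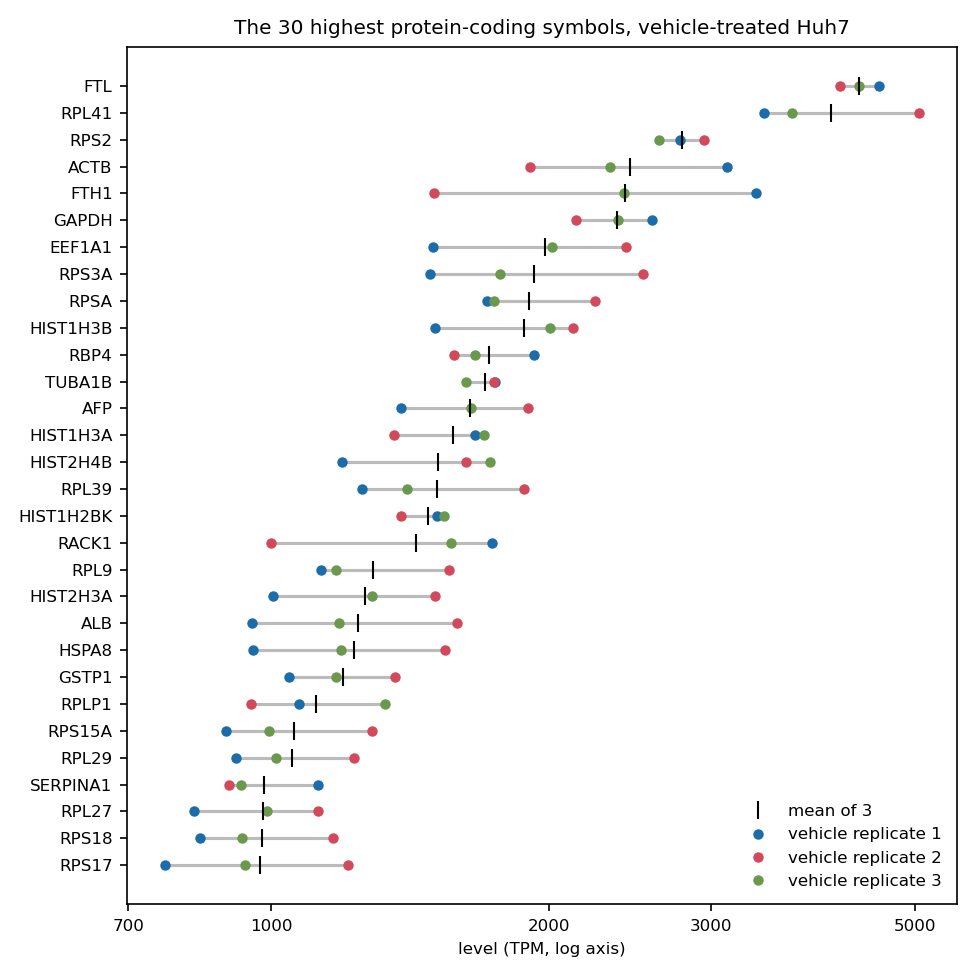
Level of the 30 protein-coding genes with the highest mean in vehicle-treated Huh7 cells, in TPM on a log axis, with a point for each of 3 libraries, a tick at their mean and a line over their range. FTL had the highest mean, RBP4, AFP, ALB and SERPINA1 are the secreted liver proteins in the set, and replicate 2 was the highest library for 18 of the 30.

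By class, 79 ribosomal protein genes held 15.6 ± 1.82% of protein-coding TPM and 83 histone genes 7.18 ± 0.833%. Plasma proteins and apolipoproteins, 94 genes, held 3.46 ± 0.108%. The 2 ferritin subunits alone held 2.19 ± 0.429%, and 24 glycolytic enzymes held 1.87 ± 0.0798%. Histone genes of the same type are often near-identical copies, so the level of a given copy is uncertain. The sum over the class is not affected by how reads were divided among copies.

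Plasma carrier proteins were the most often expressed of the secreted classes. Of 17 carriers, 16 (94.1%) were expressed and 9 were abundant, with a median of 159.6 TPM. RBP4, the retinol carrier, AFP and ALB led, and were followed by TF (transferrin, the iron carrier) at 506, 630.2 and 532 TPM. VTN (vitronectin) was at 327 ± 26.2 TPM, AMBP (the precursor of alpha-1-microglobulin and bikunin) at 273 ± 26.03 TPM, AHSG (fetuin-A) at 168 ± 14.4 TPM and GC (the vitamin D carrier) at 159.6 ± 40.1 TPM. The hemoglobin carrier HP was far lower, at 14.4, 21.1 and 17.6 TPM, and the heme carrier HPX was at 66.1 ± 6.42 TPM. FETUB, at 0.558, 0.661 and 0.72005 TPM, was the only carrier not expressed. RBP4 and AFP overlapped in range, and so did AFP and ALB, while TF lay below all of them.

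Protease inhibitors were carried by a few genes. SERPINA1, alpha-1-antitrypsin, was at 983 ± 122 TPM, and its ratio to the related antichymotrypsin gene SERPINA3 was 128 ± 9.26 within libraries. ITIH2, a heavy chain of inter-alpha inhibitors, was at 328, 442 and 372 TPM. The other listed heavy chains were at 0.5202, 0.422 and 0.511 TPM for ITIH1, 0.03805, 0.0225 and 0.0607 TPM for ITIH3 and 0.01805, 0.0427 and 0.02795 TPM for ITIH4. SERPINF1 (pigment epithelium-derived factor, 96.9 ± 7.33 TPM), SERPING1 (C1 inhibitor, 82.1 ± 34.5 TPM) and SERPINC1 (antithrombin, 45.7 ± 5.09 TPM) were also expressed. In all, 11 of 14 inhibitors were expressed (78.6%).

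Coagulation genes were expressed about as often as the background, 12 of 20 (60.0%). FGA and FGG, chains of fibrinogen, were the highest of them, at 152, 247 and 242 TPM and 176, 239 and 204 TPM, and the third chain FGB was at 80.7, 107 and 102 TPM. FGG and FGA overlapped, and FGB lay below FGG in each library, with a ratio of FGG to FGB of 2.14 ± 0.120. APOH, a phospholipid-binding plasma glycoprotein, was at 116, 149.9 and 118 TPM, above FGB in each library. Prothrombin, F2, was at 21.9 ± 3.13 TPM, F10 at 6.995 ± 0.107 TPM and F7 at 3.53 ± 0.5103 TPM. Plasminogen, PLG, was low at 0.324, 0.785 and 0.506 TPM, prekallikrein, KLKB1, was at 0.0529, 0.0606 and 0.0818 TPM, and F9 was listed at 0.

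Complement and acute phase genes were also near the background, with 15 of 29 expressed (51.7%), 5 below 0.1 TPM and none abundant. MASP1, a protease of the lectin pathway, was at 59.6, 74.2 and 63.1 TPM. C3, the central component, was at 89.6, 36.98 and 51.3 TPM and C5 at 43.1, 58.2 and 50.2 TPM. The terminal components were split: C8A was expressed at 2.198 ± 0.611 TPM, C6 was at 0.0307, 0.0546 and 0.0245 TPM, C7 at 0.0577, 0.112 and 0.0833 TPM and C9 at 0, 0.0121 and 0 TPM. Acute phase reactants were split as well. CRP was at 0.0476, 0.0617 and 0 TPM, SAA1 at 0, 0 and 0.114 TPM and LBP at 0, 0.0187 and 0 TPM, and APCS was listed at 0. SAA2, a close copy of SAA1, was expressed at 2.96, 2.34 and 3.41 TPM. Acute phase genes counted among the carriers and protease inhibitors were expressed too, with ORM1 at 65.7 ± 4.23 TPM, HP at 17.7 ± 3.32 TPM and SERPINA3 at 7.74 ± 1.56 TPM. The iron hormone HAMP was at 0.126, 0.0753 and 0.102 TPM. C4A and C4B are near-identical and were at 0, 0.126 and 0.136 TPM and 0.135, 0 and 0 TPM.

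Among structural apolipoproteins, 8 of 14 (57.1%) were expressed, near the background, and 4 of these were abundant. APOA2, the second protein of high density lipoprotein, was at 378, 595 and 518 TPM and exceeded APOA1, the main one, at 216, 274 and 221 TPM, in 3 of 3 libraries with a mean ratio of 2.09 ± 0.305. APOC1 was at 284, 312 and 313 TPM. APOE, the ligand by which remnants are taken up, was at 40.4, 31.6 and 35.5 TPM, and APOC3 at 98.3 ± 5.33 TPM. APOA5, APOF and APOC4 were low, APOA4 was at 0.126, 0.0497 and 0.101 TPM, and LPA, apolipoprotein(a), was at 0, 0.00512 and 0 TPM. Of 17 assembly, uptake and remodelling genes 11 were expressed. MTTP, which loads lipid onto APOB, was at 65.4, 99.7 and 85.3 TPM, and PLTP (phospholipid transfer) at 64.8 ± 16.2 TPM. CETP, the cholesteryl ester transfer protein, and LPL, lipoprotein lipase, were listed at 0.

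**Figure D2:**
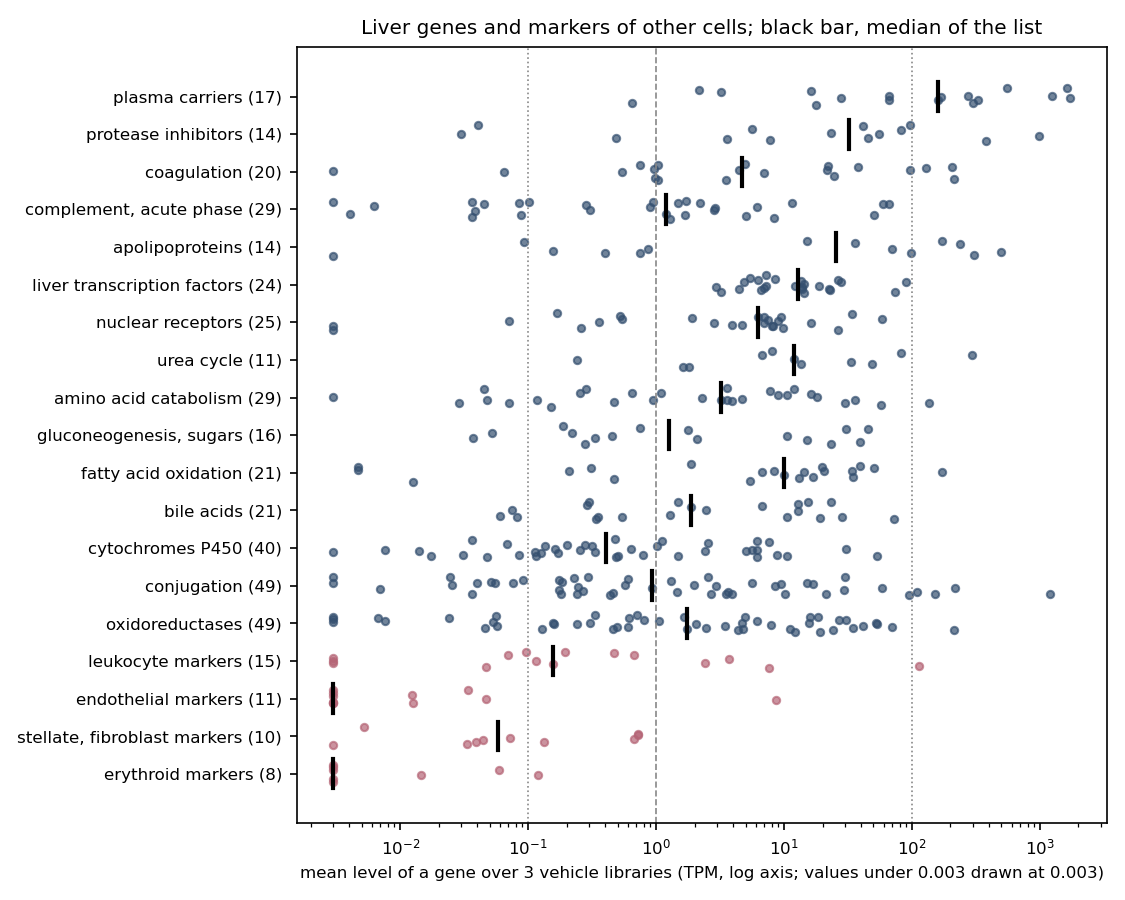
Mean level over 3 vehicle libraries of each member of 15 lists of liver genes and 4 lists of markers of other cells, in TPM on a log axis, with the number of members in parentheses and a black bar at the list's median. The dashed line is 1 TPM and the dotted lines are 0.1 and 100 TPM. Plasma carriers had the highest median, cytochromes P450 the lowest among liver lists, and endothelial and erythroid markers had medians at 0.

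All 24 liver transcription factors on the list were expressed, against 54.4% of protein-coding genes, with a median of 12.9 TPM. Like the other lists, this one was chosen with earlier results of these data known, so the count is a description only. CEBPA was at 102, 65.2 and 99.7 TPM and HNF4A at 81.7, 70.2 and 67.5 TPM, and their ranges overlapped. HNF4A exceeded its paralog HNF4G, at 4.84 ± 0.2798 TPM, by a mean ratio of 15.1 ± 0.774. FOXA3, at 30.1, 29.1 and 25.02 TPM, and FOXA2, at 28.9, 23.99 and 26.7 TPM, overlapped, and FOXA1 was at 18.4, 7.43 and 15.4 TPM. PROX1, GATA4, HHEX and ONECUT1, which act in liver bud formation, were at 14.4 ± 4.498 TPM, 22.9 ± 8.62 TPM, 22.6 ± 0.7799 TPM and 7.22 ± 2.53 TPM.

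Of 25 nuclear receptors 17 (68.0%) were expressed. NR1H4, the bile acid receptor FXR, was the highest, at 44.6, 66.5 and 64.3 TPM. PPARG, best known from fat cells, was at 24.3, 29.2 and 25.9 TPM, and PPARA, the main form in adult hepatocytes, at 2.13, 3.15 and 3.19 TPM. The ratio of PPARG to PPARA was 9.60 ± 1.67, with no overlap. The xenobiotic receptors NR1I3 (CAR) and NR1I2 (PXR) were at 2.11, 1.79 and 1.83 TPM and 0.402, 0.754 and 0.417 TPM. NR0B2 (SHP), a repressor induced by FXR, was at 3.91 ± 0.5704 TPM. RXRG was listed at 0.

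Urea cycle genes were uneven. ASS1, argininosuccinate synthase, was abundant at 306, 292 and 290.1 TPM and ASL, the next enzyme, was at 13.5 ± 0.699 TPM. The mitochondrial steps were far lower, with CPS1, carbamoyl phosphate synthase, at 1.34, 1.71 and 1.77 TPM, its activator's gene NAGS at 1.79 ± 0.541 TPM and OTC, ornithine transcarbamylase, at 0.2204, 0.261 and 0.235 TPM. ARG1, the liver arginase, was at 4.57, 9.32 and 6.45 TPM. GLUL, glutamine synthetase, was at 48.3 ± 5.904 TPM. Of the 11 genes 10 (90.9%) were expressed, and OTC was low.

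Amino acid catabolism was near the background, with 16 of 29 expressed (55.2%), and it was split within pathways. In tyrosine breakdown, HGD (homogentisate dioxygenase) was at 119, 159 and 129.5 TPM, while TAT (tyrosine aminotransferase) was at 0.984, 0.938 and 1.37 TPM and HPD, which makes homogentisate, at 0.0629, 0.0558 and 0.0251 TPM. In the methionine cycle, CBS (cystathionine synthase) was at 35.8 ± 3.31 TPM and BHMT2 at 17.99 ± 4.35 TPM, BHMT was at 0.704, 1.33 and 0.804 TPM and GNMT, which consumes S-adenosylmethionine in liver, at 0.178, 0.162 and 0.113 TPM. Tryptophan dioxygenase, TDO2, was at 0.106, 0.02096 and 0.0848 TPM, serine dehydratase, SDS, at 0.0378, 0.0672 and 0.0302 TPM, and UROC1, of histidine breakdown, was listed at 0.

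Of 16 gluconeogenesis and sugar genes 8 (50.0%) were expressed. PC, pyruvate carboxylase, was at 50.3, 40.4 and 44.8 TPM, and the mitochondrial PCK2 at 16.5, 14.8 and 14.1 TPM. The cytosolic PCK1, the hormone-regulated form, was at 0.174, 0.194 and 0.192 TPM, and G6PC, which releases free glucose, at 0.735, 0.645 and 0.856 TPM. The transporter of glucose 6-phosphate, SLC37A4, was at 23.3 ± 5.03 TPM. Sorbitol dehydrogenase, SORD, was at 38.9 ± 6.72 TPM.

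Fatty acid oxidation genes were more often expressed, 15 of 21 (71.4%), with a median of 9.95 TPM. FABP1, the liver fatty acid binding protein, was abundant at 148, 216 and 149.7 TPM. HADHA and HADHB, the subunits of the trifunctional protein, were at 39.4 ± 6.67 TPM and 50.5 ± 10.96 TPM, and CPT1A, the entry step into mitochondria, at 13.1 ± 3.37 TPM. The coactivator PPARGC1A was at 0.171, 0.162 and 0.287 TPM and CYP4A11, a target of PPARA, at 0.474, 0.263 and 0.661 TPM.

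In bile acid genes, 12 of 21 (57.1%) were expressed, and the members divided by role. The receptor FGFR4 was the highest, at 93.9, 44.6 and 77.6 TPM. Its partner KLB was at 19.1 ± 1.53 TPM, and their ligand FGF19, a hormone made mainly by the gut, was itself at 19.9, 11.9 and 14.6 TPM. CYP27A1, of the alternative synthesis route, was at 28.5 ± 1.36 TPM, and CYP7A1, the rate-limiting enzyme of the classical route, at 0.0806, 0.0358 and 0.129 TPM. CYP8B1 was at 0.374, 0.2301 and 0.2996 TPM and BAAT, which conjugates bile acids, at 0.547, 0.381 and 0.684 TPM. The basal exporter subunits SLC51A and SLC51B were at 1.48 ± 0.526 TPM and 23.2 ± 6.3002 TPM, the uptake carrier SLC10A1 at 0.297, 0.528 and 0.237 TPM and the canalicular pump ABCB11 at 0.0356, 0.0491 and 0.0946 TPM.

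Cytochromes P450 were below the background. Of 40 genes on the list, which includes the reductase POR, 13 (32.5%) were expressed and 9 were below 0.1 TPM, with a median of 0.403 TPM. CYP51A1, of cholesterol synthesis, was the highest at 40.6, 62.3 and 57.5 TPM, and POR, which passes electrons to these enzymes, was at 30.6 ± 2.604 TPM. The main drug oxidases were low, with CYP3A4 at 0.239, 0.174 and 0.349 TPM, CYP2E1 at 0.145, 0.172 and 0.289 TPM and CYP2D6 at 0.164, 0.173 and 0.153 TPM. CYP2C8 was at 0.0929, 0.0395 and 0.07403 TPM and CYP2A13 was listed at 0. CYP1A1, a target of the aryl hydrocarbon receptor, was at 5.07 ± 0.677 TPM.

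Conjugating enzymes were expressed in 23 of 49 (46.9%), below 54.4%, but 3 were abundant. GSTP1 was at 1196 ± 159.8 TPM and the membrane-bound MGST1 and MGST2 at 219 ± 8.17 TPM and 151 ± 21.4 TPM. The liver alpha-class gene GSTA1 was at 0.89003, 1.05 and 0.852 TPM. The bilirubin transferase UGT1A1 was at 0.473, 0.447 and 0.462 TPM, and the UGT1A genes share exons, so their split is uncertain. SULT2A1, which sulfates bile acids and steroids, was at 5.83, 12.7 and 10.03 TPM, and UGT2B17 and GSTA3 were listed at 0. Among 49 other oxidoreductases and hydrolases 27 (55.1%) were expressed. ALDH1A1, a retinal dehydrogenase, was abundant at 168, 249 and 219 TPM, CES1 (carboxylesterase) was at 53.4 ± 3.802 TPM and EPHX1 (epoxide hydrolase) at 51.9 ± 2.27 TPM. HSD11B1, which activates cortisol in liver, was listed at 0, while HSD11B2, which inactivates it, was at 7.902 ± 3.18 TPM.

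Over the liver lists together, 238 of 396 genes (60.1%) were expressed, 25 were abundant and 50 were below 0.1 TPM. With each library scaled to its protein-coding total, the same limits gave 280 expressed and 22 below 0.1. Such scaling raises the level of every protein-coding gene, so these counts cannot be set against the background given above. Of the 396, 13 were listed at 0 in each library, among them ADH7, ALDH1A3, APCS, CETP, CYP2A13, F9, GSTA3, HSD11B1, LPL, RXRG, UGT2B17 and UROC1. The lists group genes by function, so a member listed at 0 need not be a gene that hepatocytes use.

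Enzyme and protein families were compared within each library, as each member's share of the family's summed TPM. Over 53 families, the leading member had a median share of 90.02%, and in 27 of them it held 90% or more. The leading member was separated from the next in 47 families. In the other 6 the ranges overlapped: phosphofructokinases, aspartate aminotransferases, fatty acid binding proteins, adenylate kinases, the albumin family and the FOXA factors.

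In 27 families with a member taken as the liver form, that member led in 5 and another member led in 22. The liver form of a family need not be confined to liver. Among the 22, ranges overlapped for the phosphofructokinases and for the albumin family, where AFP, itself a liver gene, led ALB. This set of 27 was marked out after the levels had been seen and is a description only. The 5 were FBP1, PYGL, CPT1A, FABP1 and HNF4A. FBP1, fructose bisphosphatase, was itself at only 2.102 ± 0.297 TPM. Of the 27 liver forms 13 were expressed, 13 were low and PKLR was below 0.1 TPM.

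Among methionine adenosyltransferase transcripts, MAT2A held 97.6 ± 0.334% of the family's summed TPM and exceeded MAT1A by a mean ratio of 41.2 ± 6.02. MAT2A was highest in replicate 2, and MAT1A was expressed in each library. MAT2A is the target of FIDAS-5, given in one of the 2 treated arms of the study.

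Glycolytic steps showed the same order. HK2 held 97.6 ± 0.594% of hexokinases and was at 10.9, 11.997 and 9.81 TPM, against 0.1997, 0.289 and 0.171 TPM for HK1. ALDOA held 90.8 ± 1.53% of aldolases at 623, 466 and 580.5 TPM, and ALDOC was next at 61.1, 56.2 and 48.6 TPM. PKM was at 676, 653 and 606 TPM and the liver form PKLR at 0, 0.0339 and 0.0762 TPM. SLC2A1, the widespread glucose transporter, held 86.4 ± 1.999% of its family at 37.7, 23.8 and 27.7 TPM, and SLC2A2, the liver transporter, was at 0.3298, 0.557 and 0.463 TPM. PFKM and PFKL, the muscle and liver phosphofructokinases, were not separated, at 15.96, 22.8 and 17.4 TPM and 16.7, 8.88 and 13.5 TPM, and PFKM exceeded PFKL in 2 of 3 libraries.

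Lactate dehydrogenase was the extreme case. LDHA held 99.97% of the family, LDHD and the testis gene LDHC held the rest, and LDHB was listed at 0 in each library. Genes that every cell uses, such as TBP at 4.75, 6.17 and 5.03 TPM and GUSB at 7.62, 7.36 and 7.44 TPM, were above 0. Whether the 0 of LDHB reflects its level or the annotation used was not tested.

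Several families of sugar-releasing and storage enzymes were led in TPM by members other than the liver form. PCK2 held 98.8 ± 0.162%, G6PC3 98.2 ± 0.319% at 53.3, 37.9 and 45.9 TPM, and GYS1, the muscle form of glycogen synthase, 98.7 ± 0.605% at 23.7, 12.7 and 15.3 TPM. Fructose bisphosphatase and glycogen phosphorylase were exceptions. The liver form FBP1 held 98.7 ± 1.14% of its family. The liver form PYGL held 68.1 ± 4.003% at 28.2, 32.1 and 31.8 TPM, above the brain form PYGB at 16.1, 13.96 and 12.8 TPM.

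In nitrogen and lipid metabolism, GPT2 held 95.3 ± 1.67% against the liver form GPT. ARG2 was at 11.6, 13.1 and 11.4 TPM and held 64.6 ± 6.67% against ARG1. ACSL4 was at 92.2, 74.9 and 85.9 TPM and ACSL3 at 41.7, 30.8 and 39.7 TPM, both above the liver form ACSL1 at 7.55, 9.24 and 8.19 TPM. FABP1 exceeded FABP5 in 3 of 3 libraries, by a mean ratio of 1.34 ± 0.139, with overlapping ranges.

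Detoxifying families were also led by members other than the liver form. ADH5, the formaldehyde-oxidizing alcohol dehydrogenase found in all tissues, held 90.02 ± 2.16% at 54.998, 88.3 and 67.6 TPM, and the liver form ADH1B was at 0.0432, 0.0128 and 0.103 TPM. The fetal CYP3A7 held 47.5 ± 8.85% of the CYP3A sum at 0.996, 1.42 and 0.926 TPM, above CYP3A5 at 0.549, 0.554 and 0.809 TPM and CYP3A4, all near or under 1 TPM. AKR1C1 held 86.6 ± 1.18% of the AKR1C genes, and AKR1C4, the liver form, was at 0.264, 0.125 and 0.0845 TPM. The AKR1C and CYP3A genes are close copies, so their split is uncertain.

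**Figure D3:**
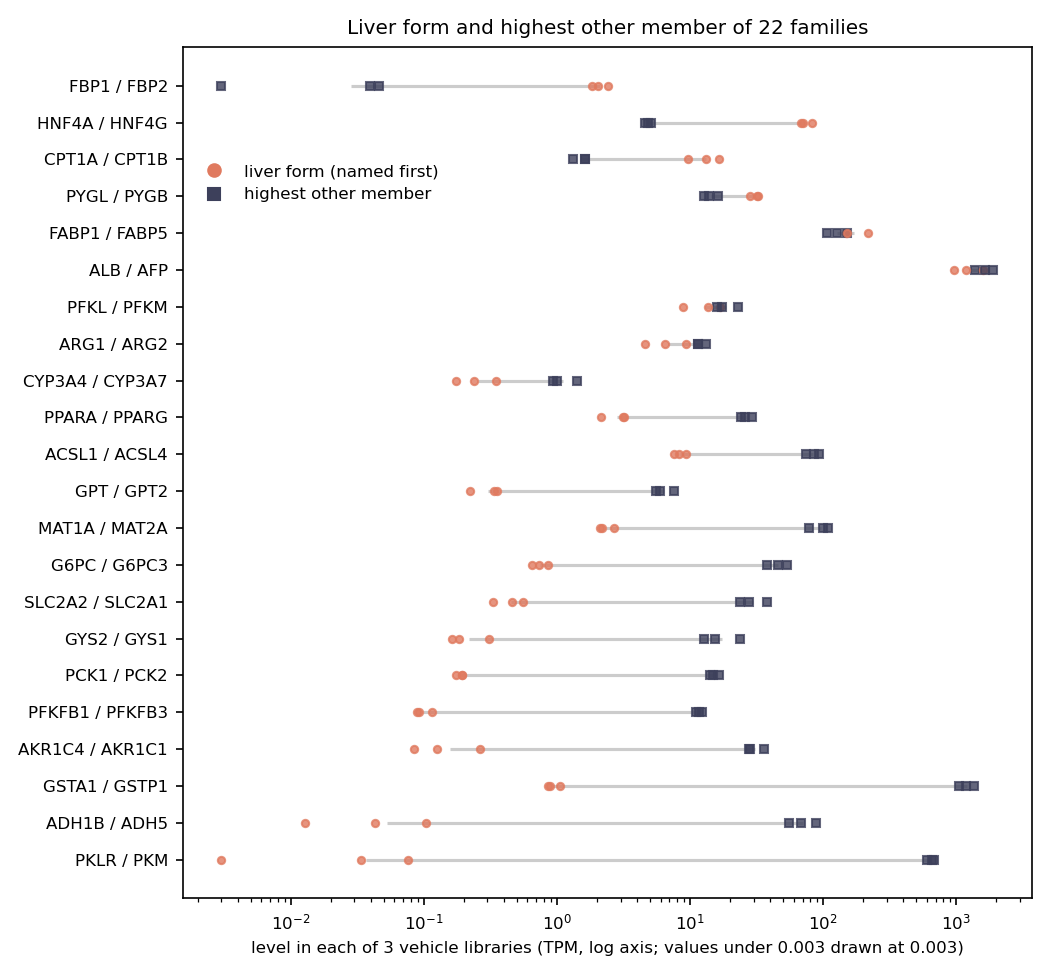
Level in each of 3 vehicle libraries of the liver form (circles) and of the highest other member (squares) in 22 of the 27 families with a liver form, in TPM on a log axis, with a grey line between the means and families ordered by the ratio of the forms. The liver form lies to the right in the 5 families at the top and to the left in the other 17, with PKLR and PKM the farthest apart.

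Fetal liver and oncofetal genes were near the background as a list, with 18 of 37 expressed (48.6%), but 5 of them were abundant (13.5%, against 2.16% of protein-coding genes). AFP was the highest. GPC3, a cell surface proteoglycan of fetal liver, was at 379, 297 and 292 TPM. SPINK1, a trypsin inhibitor, was at 211, 323 and 232 TPM, MDK, a growth factor, at 244, 213 and 228 TPM and HMGA1, a chromatin protein, at 256, 166 and 209.7 TPM. PEG10, a domesticated retrotransposon gene, was at 131, 70.7 and 103 TPM. IGF2, the fetal growth factor, was at 288, 61.1 and 155 TPM, with replicate 1 the highest and replicate 2 the lowest.

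LIN28B, which blocks let-7 processing, was at 37.6, 35.9 and 41.1 TPM, and its paralog LIN28A at 0.515, 0.373 and 0.658 TPM, a mean ratio of 77.2 ± 17.2. TRIM71 was at 22.9, 14.4 and 20.1 TPM and HMGA2 at 52.4, 62.2 and 58.9 TPM, both known let-7 targets. IGF2BP1, an RNA-binding protein that binds IGF2 mRNA, was at 76.2, 70.05 and 72.7 TPM and held 69.1 ± 1.75% of its family. IGF2BP3 and IGF2BP2 overlapped, at 16.5 ± 1.37 TPM and 16.3 ± 2.44 TPM.

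Of the 37 fetal liver and oncofetal genes, 10 were low and 9 were below 0.1 TPM in each library. The imprinted gene DLK1 was listed at 0 in each library, and PEG3, also imprinted, was at 0, 0 and 0.00532 TPM. The fetal globins HBG1 and HBG2, which mark fetal blood cells in liver, were listed at 0, and the embryonic HBE1 was at 0.414, 0.393 and 0.465 TPM. SALL4, a stem cell factor, was at 1.13, 0.875 and 1.15 TPM. TERT, the catalytic subunit of telomerase, was at 1.36, 0.491 and 0.714 TPM.

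Progenitor and biliary genes were expressed in 16 of 26 (61.5%), with 4 abundant. The simple epithelial keratins KRT8 and KRT18 were at 249, 329 and 284 TPM and 235, 146 and 241 TPM, CD24 at 288, 293 and 280.5 TPM and the tight junction gene CLDN1 at 202, 148 and 181 TPM. The duct keratins differed, with KRT19 at 1.08, 0.641 and 0.832 TPM and KRT7 listed at 0. THY1 and CD34 were listed at 0, and PROM1 was at 18.96 ± 3.92 TPM. Of 36 cancer-testis genes 2 were expressed (5.56%) and 25 were below 0.1 TPM. These 2 were PRAME, a tumour antigen, at 28.5, 21.6 and 21.6 TPM, and TEX19 at 2.12, 2.51 and 1.84 TPM. The MAGEA genes are near-identical copies, and MAGEA10 was the highest of them at 0.3397, 0.374 and 0.508 TPM.

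**Figure D4:**
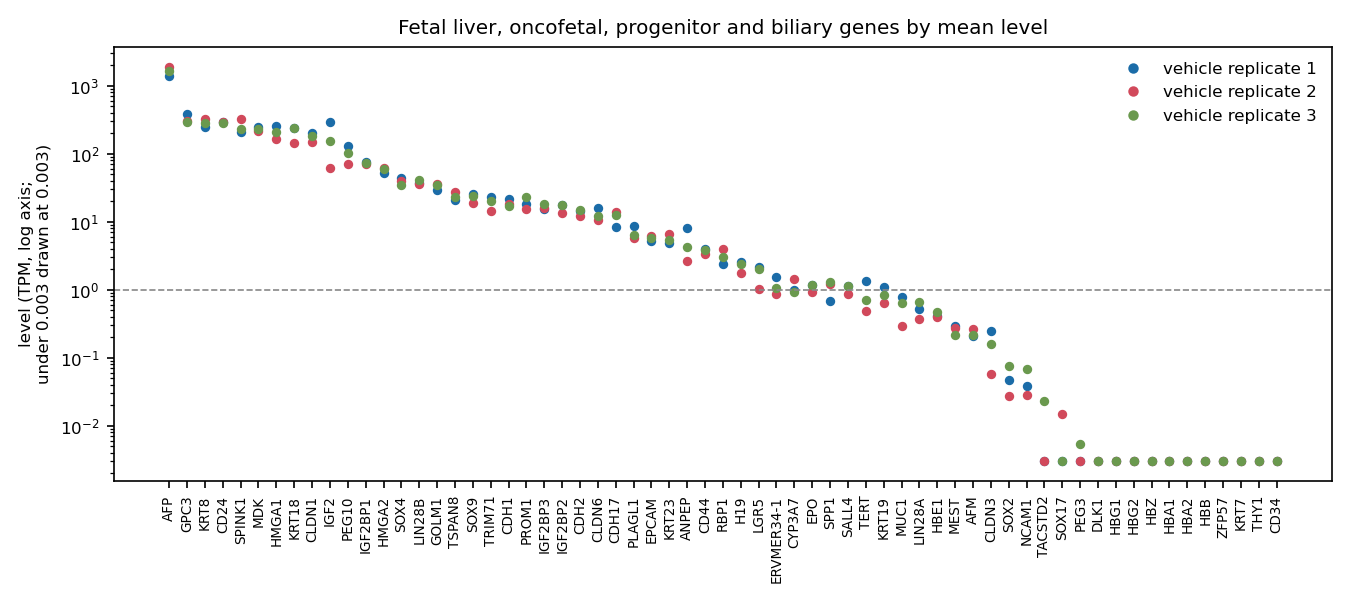
Level of each fetal liver, oncofetal, progenitor and biliary gene in 3 vehicle libraries, in TPM on a log axis, ordered by mean, with the dashed line at 1 TPM. AFP stands above the rest, GPC3 to CLDN1 form a group of abundant genes, and IGF2 is spread from 61.1 to 288 TPM. The fetal globins HBG1 and HBG2, DLK1 and KRT7 lie at 0.

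Neighbours in gene clusters often differed by orders of magnitude. ALB and AFP were abundant and AFM, the next gene on the chromosome, was low. On chromosome 11, APOA1 and APOC3 were at 237 ± 31.99 TPM and 98.3 ± 5.33 TPM, and APOA4 and APOA5, in the same cluster, at 0.0921 ± 0.0388 TPM and 0.395 ± 0.0472 TPM. On chromosome 19, APOC1 exceeded APOE, APOC2 was at 15.1 ± 0.919 TPM and APOC4 at 0.823, 1.05 and 0.6997 TPM. On chromosome 14, SERPINA1 lay between SERPINA6 (the cortisol carrier, 27.7 ± 2.41 TPM) and SERPINA11, at 0.167, 0.148 and 0.166 TPM, while SERPINA9 and SERPINA12 were listed at 0. The alcohol dehydrogenase cluster on chromosome 4 was led by ADH5, with ADH6 at 4.95 ± 0.528 TPM, ADH4 at 2.47 ± 0.669 TPM and ADH1A, ADH1B, ADH1C and ADH7 near or at 0.

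ITIH2 shares its cluster on chromosome 10 with ITIH5, at 1.81 ± 0.217 TPM, and ITIH1, which was low, and ITIH3 and ITIH4, both below 0.1 TPM in each library, are neighbours on chromosome 3. IGF2 and H19, reciprocally imprinted neighbours on chromosome 11, were at 288, 61.1 and 155 and 2.53, 1.74 and 2.42 TPM. On chromosome 14, DLK1 was listed at 0 and its imprinted partner MEG3 was at 0.0178, 0.0207 and 0.0367 TPM. PEG10 and SGCE share an imprinted promoter region on chromosome 7, and SGCE was at 19.99, 24.1 and 19.98 TPM. Metallothioneins on chromosome 16 were led by MT1E at 77.7, 57.3 and 101 TPM and MT1F at 65.5, 43.4 and 73.7 TPM. MT2A was at 56.6, 27.5 and 70.3 TPM, and MT3 and MT4 were listed at 0. Of 7 expressed metallothioneins, MT2A, MT1E, MT1A, MT1F, MT1G and MT1X were each lowest in replicate 2, and MT1M, at 4.78, 7.43 and 4.34 TPM, was highest there. MT1 genes are close copies, so their split is uncertain.

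**Figure D5:**
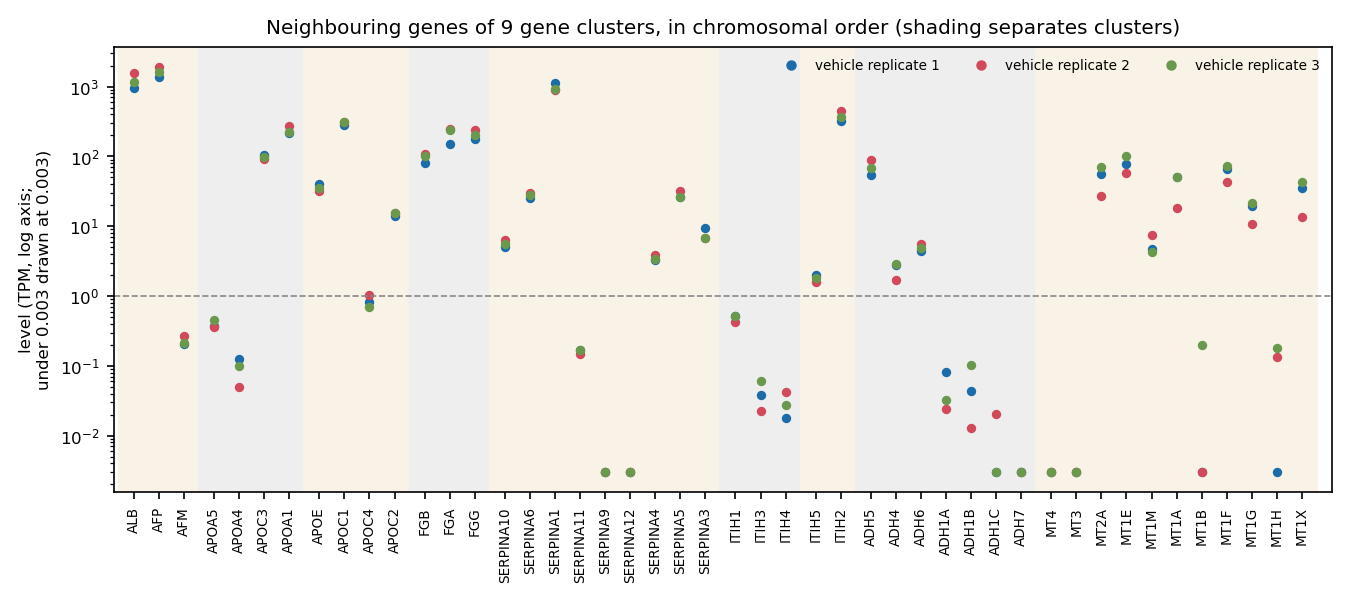
Level of neighbouring genes of 9 clusters, in TPM on a log axis, in chromosomal order with a point for each of 3 vehicle libraries and the dashed line at 1 TPM. In the albumin, APOA, SERPINA and ADH clusters, genes above 50 TPM share a cluster with genes below 1 TPM.

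Huh7 is widely used to grow hepatitis C virus, and the host genes of that virus were present. All 12 replication factors were expressed, among them PPIA (cyclophilin A) at 227, 323 and 269.8 TPM and PI4KA, a lipid kinase, at 16.6 ± 1.31 TPM. Of 13 entry factors 11 (84.6%) were expressed: the receptor CD81 was at 79.2, 44.6 and 68.1 TPM, SCARB1 at 65.96, 38.6 and 52.2 TPM, CLDN1 at 177 ± 27.1 TPM and OCLN (occludin) at 4.07, 3.94 and 3.99 TPM, the ratio of CLDN1 to OCLN being 44.2 ± 6.07. The hepatitis B virus receptor, SLC10A1, was low as given above. Innate sensing genes were expressed in 14 of 30 (46.7%). MAVS was at 35.2, 9.697 and 20.5 TPM and IRF3 at 13.6 ± 0.604 TPM, the RNA sensors DDX58 and IFIH1 were at 0.756, 1.25 and 1.25 TPM and 0.271, 0.217 and 0.216 TPM, and TLR3 was at 0.133, 0.112 and 0.0606 TPM. The adaptor of DNA sensing, TMEM173 (STING), was at 0.405, 0.1798 and 0.135 TPM, and the interferon genes IFNB1, IFNL2 and IFNL3 were listed at 0.

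Cell cycle genes were expressed in 19 of 20 (95.0%). CDK4 was at 147, 180.04 and 148 TPM, PCNA at 162, 119.9 and 153 TPM and the proliferation marker MKI67 at 23.6, 14.4 and 24.6 TPM. MYCN exceeded MYC, at 82.1, 56.8 and 57.97 TPM against 9.39, 8.26 and 8.43 TPM, a mean ratio of 7.498 ± 1.08 with no overlap. The cell cycle inhibitor CDKN1A was at 17.8 ± 1.504 TPM. CCND1 was at 46.9 ± 2.16 TPM and CCND2 at 0.0258, 0.05602 and 0.0343 TPM. Of 23 growth factor receptors 16 (69.6%) were expressed, with the highest means for FGFR4, given above, and ERBB3 at 34.6, 47.5 and 36.3 TPM. These 2 overlapped, with FGFR4 the higher in replicates 1 and 3 and ERBB3 in replicate 2. MET was at 24.6 ± 1.79 TPM and EGFR at 20.2 ± 5.22 TPM. ERBB4 was listed at 0, and the ligands HGF and TGFA were at 0.0928, 0.05498 and 0.0371 TPM and listed at 0.

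In the Wnt pathway 12 of 18 genes (66.7%) were expressed. CTNNB1, beta-catenin, was at 138, 231 and 183 TPM, and the secreted inhibitor DKK1 at 26.5, 35.6 and 32.1 TPM. Known targets were mixed, with AXIN2 at 0.753, 0.915 and 0.579 TPM, LGR5 at 2.17, 1.04 and 2.03 TPM, NKD1 at 0.09204, 0.0628 and 0.0779 TPM and NOTUM at 0.292, 0.1101 and 0.127 TPM. ZNRF3, TBX3 and RNF43, also known targets, were higher, at 9.39 ± 2.41 TPM, 6.59 ± 0.546 TPM and 4.54 ± 0.282 TPM. SP5 was low at 1.35, 0.978 and 1.25 TPM. Adhesion genes were expressed in 20 of 23 (87.0%). CDH1 (E-cadherin) exceeded CDH2 (N-cadherin) in 3 of 3 libraries, at 21.5, 18.5 and 17.1 TPM against 14.4, 12.3 and 15.1 TPM. FN1, fibronectin, was at 225, 117 and 145 TPM and VIM at 27.9 ± 1.24 TPM. The mesenchymal factors SNAI2, TWIST1 and ZEB2 were below 0.1 TPM in each library, while SNAI1 was at 6.28 ± 1.94 TPM and ZEB1 at 2.56 ± 0.499 TPM.

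Iron genes were expressed in 12 of 16 (75.0%), with 5 abundant. FTL exceeded FTH1, the ferroxidase subunit, at 3353, 1502 and 2414 TPM, by a mean ratio of 1.97 ± 0.713, and the ranges did not overlap. The transferrin receptor TFRC was at 137, 178 and 163 TPM, its liver paralog TFR2 at 4.76, 1.304 and 2.85 TPM, and the exporter SLC40A1 at 34.5, 37.6 and 37.05 TPM. HAMP and its regulators HFE2 and TMPRSS6 were low. SELENOP, the selenium carrier of plasma, was at 443, 469 and 444 TPM.

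Of 4263 long noncoding RNA symbols 613 (14.4%) were expressed and 5 were abundant. The highest were LRRC75A-AS1 at 605, 837 and 591 TPM, DANCR at 291, 306 and 312 TPM and SNHG25 at 288, 361 and 230.1 TPM, with SNHG1 and SNHG16 also abundant. The SNHG genes are hosts of small nucleolar RNAs. HULC, a transcript named for its high level in liver cancer, was at 19.2, 26.1 and 22.5 TPM, MALAT1 at 47.7, 43.7 and 50.5 TPM and NEAT1 at 2.01, 2.25 and 2.404 TPM. LRRC75A-AS1 is an antisense gene, and the strand setting of the quantification was not given in the sources used here.

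Across 4587 protein-coding genes with a mean of 10 TPM or more, the median coefficient of variation over the 3 libraries was 12.8% and the 90th percentile 27.8%. Across expressed genes, log2(TPM + 1) correlated between libraries with Pearson's r of 0.964 for replicates 1 and 2, 0.985 for 1 and 3 and 0.983 for 2 and 3. These are correlations across genes, which are not independent replicates. The 10 most variable genes at that level all had their highest value in replicate 1 and their lowest in replicate 2. POLR2A, the largest subunit of RNA polymerase II, was at 79.6, 17.5 and 41.1 TPM and IGF2 at 288, 61.1 and 155 TPM. The other 8 were TMEM189-UBE2V1, LY6G5B, TP53INP2, POM121C, PLBD2, PROSER1, PTPN23 and MBD6, with coefficients of variation from 61.0% to 65.8%.

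Departures from the gene mean followed the GC content of the transcript, with Spearman's rho of 0.42, -0.28 and -0.18 in replicates 1, 2 and 3 over 10299 genes. The part of GC content in the spread of any gene named here was not tested. Genes such as IGF2, C3, LRP1 (22.1, 6.18 and 11.97 TPM), RXRA (14.6, 4.602 and 10.4 TPM) and MAVS carry this pattern of replicate 1 above 3 above 2, so their means carry a wide error, whereas TTR, SELENOP, GUSB and HLF (12.03, 12.2 and 12.1 TPM) were nearly level.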

How the data were processed

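RNA-seq was run on total RNA from 9 libraries of Huh7 cells, of which the 3 vehicle libraries were used here. Salmon and the human build hg38 are named in the submitters' processing notes, and the table deposited by the authors gives 1 TPM value for each symbol and library. The version, annotation, read filters and strand setting are not given in the sources used here. Vehicle columns departed from the nominal TPM total by at most 0.248 TPM. Symbols were matched to RefSeq (25681 current, 1134 by synonym, 985 unmatched).

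Classes, within-family shares, ratios and coefficients of variation were computed in Python 3.11.15 with pandas 2.3.3, numpy 2.4.6 and scipy 1.17.1, and figures were drawn with matplotlib 3.10.9. The functions were checked on simulated data. No test between groups was run, because a single group was described. GC content came from GENCODE transcripts, as the median over a gene's transcripts, for 99.2% of expressed protein-coding genes. Promoters matched 15277 protein-coding genes, and only 291 of 396 liver list genes, so none is described by list. The GC comparison between libraries used log2(TPM + 1).

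Named genes were the 30 highest protein-coding genes, the 4 markers, members of the gene lists and families, and the 10 most variable protein-coding genes with a mean of 10 TPM or more. Also named were the 10 members of the liver lists with the lowest mean, which tied at 0 with 3 others. Some of these genes are not reported here, though they remain in the counts. Members and lists were chosen with earlier results of these data known. The gene clusters, the summed classes, the ratios and 12 further genes were chosen after the levels had been seen. Alternatives covered the expression limit, the scale, the pseudocount and leaving out each library.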

Additional observations from a re-analysis of the deposited data

How the results depend on the processing

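No paired analysis was possible because only 1 group was described and its results come from no test. Counting a gene as expressed at 5 TPM in each library left 6896 symbols and 6349 protein-coding genes, against 11809 and 10381 at 1 TPM. The limits of 0.5 TPM, a mean of 1 TPM and scaling to the protein-coding total gave 10819 to 12081 protein-coding genes. Leaving out a replicate in turn gave 10432 to 10664 protein-coding genes, 467 to 476 expressed list members (465 with all), 8.32% to 8.51% for the share of the 10 highest genes, 89.9% to 90.5% for the median leading share and 9.28% to 15.5% for the median coefficient of variation. The FOXA factors changed their leading member without replicate 2, and with a replicate left out in turn their leading share ran from 38.5% to 43.5%, against 41.4% for FOXA3 with all libraries. Of 606 alternatives on lists, families and named levels, 589 stayed within the spread or within 1.5 times the count, and 16 counts of expressed list members moved further, 11 of them under the limit of 5 TPM. No mitochondrially encoded symbol was among the protein-coding genes matched here, so leaving such genes out was not run. Depth is unknown, so levels below 1 TPM carry an unknown counting error.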
